A study of Mus musculus with 32 samples.

Results

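The interferon-induced genes are a group of 34 mouse genes whose transcription rises when cells meet type I interferon. They were taken by symbol: each probe of the array that carried a listed gene name was read, and the brightest probe stood for the gene. All 34 genes had a probe, among 35019 names on the array. They had 48 probes between them, and 13 genes had more than 1. All 34 members were bright enough to be tested on the arrays that used a common RNA pool (21387 genes tested) and within splenic B cells (22218 tested), and 25 on the arrays of a drug course (17876 tested).

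The arrays were 2-colour Agilent slides, 32 in all, from a study of B cell lymphomas that arise in mice without ATM, a kinase of the DNA damage response. On 24 of them a sample labelled with Cy5 was set against 1 Cy3-labelled RNA pool, itself mixed from the tumours, germinal centre (GC) B cells, and untreated and stimulated B cells from spleens of either genotype. On the other 8 arrays, lymphoma cells given the drug PCI-32765 (Cy5) were set against vehicle-treated cells of the same line (Cy3). No dye was swapped, so a dye effect on a gene cannot be told apart from an effect of the drug.

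The pool arrays held 9 lymphoma lines from spleen, strain ATMKO.CD3epsilonKO: 1001, 1004, 1007, 1010, 1013, 1016, 1019, 1036 and 1039. These mice lack both ATM and the CD3 epsilon chain of the T cell receptor. Splenic B cells of the same strain (called ATMKO here) were untreated or cultured for 3, 6 or 24 h with a goat antibody to mouse IgM (15 ug/ml), which crosslinks the B cell receptor. Splenic B cells of the strain ATMWT.CD3epsilonKO (called ATMWT), with ATM but also without CD3 epsilon, were untreated or stimulated for 6 h. GC B cells came from ATMWT mice immunised with SRBC (sheep red blood cells), whose strain label names no CD3 epsilon knockout, so the GC sample and the other samples differ in that allele as well. The drug course used lines 178119 and 28545, also ATMKO.CD3epsilonKO, with 100 nM PCI-32765 (ibrutinib, which blocks BTK, a kinase downstream of the B cell receptor) or DMSO for 1, 3, 6 and 24 h. Each lymphoma is labelled as a cell line, so that cells of 1 lymphoma are not independent; how the lines were grown, and how many animals gave the splenic and GC samples, is not given in the sources used here.

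Type I interferon binds a receptor whose kinases JAK1 and TYK2 start a signal that brings STAT2 and IRF9 together in a complex called ISGF3. ISGF3 binds the interferon-stimulated response element (ISRE) upstream of genes that block viral replication, among them the OAS, IFIT, Mx and ISG15 families, while interferon gamma acts through the GAS element. The genes for STAT2, IRF9 and IRF7 are themselves interferon-induced, and B cells can also raise parts of the programme after nucleic acid sensing.

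The upstream DNA of 7 members is shown because 6 of them hold the ISRE core, the element ISGF3 acts through, and because Plscr1, which recurs in the results below, holds GAS. RefSeq promoter sequences (assembly GRCm38.p6) were matched by symbol for 25 of the 34 members, and the 250 bases before each start site were searched on both strands for the ISRE core GAAANNGAAA (TTTCNNTTTC when read on the other strand) and for the GAS element TTCNNNGAA. In the first 6 sequences, read 5′ to 3′ on the strand of the gene, capitals mark the ISRE core, and in that of Plscr1 they mark GAS. Neighbouring cores can overlap, as in Isg15, where 3 cores begin 78, 72 and 66 bases before the start site.
Isg15: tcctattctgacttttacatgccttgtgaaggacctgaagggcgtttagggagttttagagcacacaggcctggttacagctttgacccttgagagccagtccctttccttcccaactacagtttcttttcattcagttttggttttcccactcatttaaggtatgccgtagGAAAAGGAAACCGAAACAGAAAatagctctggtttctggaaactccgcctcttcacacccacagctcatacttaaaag
Ifit1: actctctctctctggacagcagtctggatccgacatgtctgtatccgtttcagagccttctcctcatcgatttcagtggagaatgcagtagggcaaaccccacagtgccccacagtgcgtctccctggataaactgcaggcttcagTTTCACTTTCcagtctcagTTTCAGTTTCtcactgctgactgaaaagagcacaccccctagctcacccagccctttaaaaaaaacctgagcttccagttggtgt
Ifit3: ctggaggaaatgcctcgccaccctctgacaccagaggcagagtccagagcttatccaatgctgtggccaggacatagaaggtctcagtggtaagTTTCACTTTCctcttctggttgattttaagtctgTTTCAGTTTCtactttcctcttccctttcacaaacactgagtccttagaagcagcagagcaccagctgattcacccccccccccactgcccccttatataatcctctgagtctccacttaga
Oas1a: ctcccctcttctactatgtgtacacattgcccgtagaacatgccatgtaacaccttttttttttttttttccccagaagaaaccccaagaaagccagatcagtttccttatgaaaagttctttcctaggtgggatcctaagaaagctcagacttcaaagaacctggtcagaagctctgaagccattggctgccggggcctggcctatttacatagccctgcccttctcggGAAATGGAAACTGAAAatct
Rsad2: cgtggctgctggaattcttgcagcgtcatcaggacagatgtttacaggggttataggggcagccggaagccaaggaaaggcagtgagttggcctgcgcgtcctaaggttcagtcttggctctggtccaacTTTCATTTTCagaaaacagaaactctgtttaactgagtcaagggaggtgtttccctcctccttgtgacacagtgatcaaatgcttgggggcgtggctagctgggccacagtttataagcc
Bst2: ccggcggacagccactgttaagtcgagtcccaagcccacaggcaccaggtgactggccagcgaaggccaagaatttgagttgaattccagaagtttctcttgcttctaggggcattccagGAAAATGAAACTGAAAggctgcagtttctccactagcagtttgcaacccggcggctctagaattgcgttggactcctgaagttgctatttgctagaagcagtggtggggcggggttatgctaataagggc
Plscr1: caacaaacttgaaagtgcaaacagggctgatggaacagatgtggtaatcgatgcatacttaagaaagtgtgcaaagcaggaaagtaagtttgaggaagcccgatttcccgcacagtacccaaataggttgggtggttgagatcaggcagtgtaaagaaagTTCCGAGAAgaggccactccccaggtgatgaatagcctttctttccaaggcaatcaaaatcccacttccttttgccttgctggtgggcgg
These stretches lie at chr4:156200819-156201068 (Isg15, minus strand), chr19:34640639-34640888 (Ifit1, plus strand), chr19:34583279-34583528 (Ifit3, plus strand), chr5:120907526-120907775 (Oas1a, minus strand), chr12:26456453-26456702 (Rsad2, minus strand), chr8:71537473-71537722 (Bst2, minus strand) and chr9:92249944-92250193 (Plscr1, plus strand). The ISRE core occurred in 8 of the 25 members with an entry (Stat2, Oas1a, Oas3, Ifit1, Ifit3, Isg15, Rsad2 and Bst2), and in 978 of 32851 entries of the same length overall (2.98%). GAS occurred in 5 of the 25 (Eif2ak2, Oas1a, Ifit2, Bst2 and Plscr1) and in 2306 entries overall (7.02%). Ifit1 held cores 104 and 85 bases before the start, Ifit3 156 and 122, Oas1a 20 and 14, Bst2 130 and 124, Rsad2 1 core at 120, and Plscr1 its GAS at 90. A match is a run of letters and not a measured binding site. No entry was used for Dhx58, Zbp1, Oas2, Usp18, Parp9, Parp14, Mx1, Mx2 and Rtp4.

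Arrays of 1 sample were averaged, which left 16 pool-array samples: 9 lines, 1 GC sample, 2 untreated and 4 stimulated splenic samples. On 2 arrays few spots rose above background, the first GC array (29.42% of spots in the sample channel) and the first array of line 1039 (21.93%). Over all probes the first GC array correlated at 0.0641 and 0.066 with the other GC arrays, which correlated with each other at 0.958, and the arrays of line 1039 correlated at 0.3. Line 1039 put 6 members above background on its first array, against 30 on its second, and the GC arrays 16 to 31. One drug array, line 28545 at 24 h, had 85.46% of spots above background, where the other drug arrays had 45.6 to 52.99%. The values below for single lines take line 1039 from its second array, and those for GC cells are given with and without the first array. Fitted differences use all arrays, and the effect of leaving the poor ones out is given beside them. Within the splenic B cells the B cell markers Cd79a and Ms4a1 were above background on every array. So were markers of other cells, such as S100a8 of neutrophils and Cd3g of T cells. GC markers (7 of 8 listed were measured) had a median log2 ratio of 0.78 in the GC sample and of 0.12 to 0.67 in the lines, against -2.86 to -2.07 in splenic cells. No source used here says that the samples of a group came from separate animals, so the p-values measure the spread between these samples only.

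**Figure D1:**
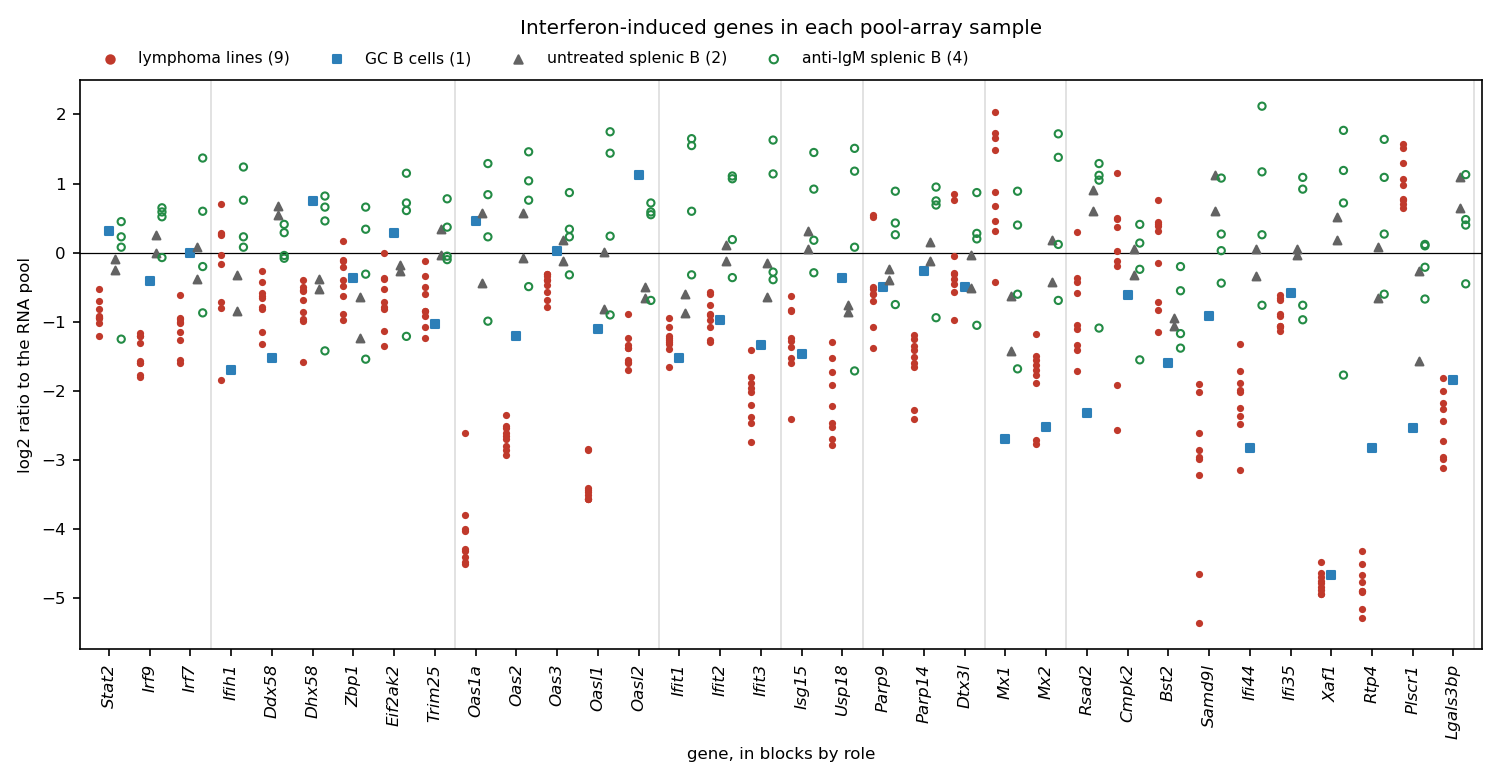
Log2 ratio of each member to the RNA pool (vertical axis) in each pool-array sample, with genes in blocks by role along the horizontal axis; red dots are the 9 lymphoma lines, blue squares the GC sample, grey triangles the 2 untreated and green circles the 4 anti-IgM splenic samples, and the 2 poor arrays are left out. Oas1a, Oasl1, Xaf1 and Rtp4 sit below -2.5 in all 9 lines, and Plscr1 above 0 in all 9.

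The lymphoma lines carried less of many interferon-induced transcripts than untreated splenic B cells did. In limma with Benjamini-Hochberg adjustment at 0.05, 17 of 34 members were lower in the lines and 2 were higher (35.8% of all genes tested were called, 21.1% lower and 14.7% higher), with a median difference of -0.90 on the log2 scale against -0.01 over all genes. Every line lay below both untreated samples for 22 members, a pattern that 24.4% of all genes showed, and above both for Mx1, Bst2 and Plscr1 (19.8% of all genes). Against stimulated splenic B cells 26 members were lower and 2 higher (46% of all genes called, 24.8% lower and 21.2% higher), with a median of -1.38. The 6 largest of these changes were those of Rtp4 (-5.15), Xaf1 (-5.00), Oas1a (-4.14), Oasl1 (-3.79), Oas2 (-3.18) and Samd9l (-3.17), genes described one by one below. A second Xaf1 probe gave -0.23 as the mean of the lines and 0.02 in stimulated cells. All 9 lines lay below all 4 stimulated samples for 17 members (14% of all genes) and above all 4 for Plscr1 alone (11.2% of all genes). Both comparisons use the same 9 lines, and these overlap counts average the arrays of line 1039. These are bulk samples, in which fewer cells of a kind and less RNA per cell cannot be told apart.

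Markers of other cell types moved with this difference. Of 12 neutrophil markers, all 12 were lower in the lines (list median -4.91), as were 12 of 13 tested macrophage and monocyte markers, 8 of 9 NK cell markers, 7 of 10 T cell markers, 8 of 9 erythroid markers and 4 of 9 dendritic cell markers. Of all genes tested, 21.1% were lower in the lines than in untreated cells. The median log2 ratio of the neutrophil list was 1.01 and 1.13 in the untreated samples, 0.38 to 1.33 in the stimulated ones, -2.99 in GC cells and -4.25 to -2.13 in the lines. For macrophage and monocyte markers these medians were 0.89 to 1.06, -0.59 to 0.36, -1.99 and -3.00 to -1.27. Their part in the difference of the interferon-induced genes was not tested.

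Among the signalling members, Irf9, which gives ISGF3 its contact with DNA, was lower in the lines. Its log2 ratio was -0.01 in untreated ATMWT and 0.26 in untreated ATMKO cells, and -1.80, -1.56 and -1.16 as the lowest, median and highest line. Every line lay below both, by 1.55 ± 0.24 (SE, log2; 2.93-fold; limma, adjusted p = 0.000181). Stat2, the partner of IRF9, ran from -1.20 to -0.52 in the lines around a median of -0.93, below -0.25 in ATMKO and -0.09 in ATMWT cells. Its difference did not pass the test against untreated cells and passed against stimulated ones (-0.73 ± 0.24, limma adjusted p = 0.0216). Without the ATMKO 24 h, ATMKO 6 h or ATMWT 6 h sample that call was lost (limma adjusted p = 0.0917, 0.0809 and 0.0673). Irf7, which amplifies interferon production, ran from -1.59 to -0.61 in the lines (median -1.02), below 0.08 and -0.38 in untreated cells, and likewise passed only against stimulated cells (-1.27 ± 0.30, adjusted p = 0.00333).

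Of the cytosolic sensors and their relatives, Ddx58 (RIG-I) and Trim25, the ubiquitin ligase that acts on it, were lower in the lines than in untreated cells. Ddx58 was at 0.55 and 0.68 in untreated cells and between -1.32 and -0.26 in the lines, with no overlap (-1.33 ± 0.24, limma adjusted p = 0.000572). Trim25 was at -0.04 and 0.34 in untreated cells and between -1.23 and -0.12 in the lines, with a difference of -0.86 ± 0.28 (adjusted p = 0.024). The second Trim25 probe gave -0.01 as the mean of the lines and 0.78 in untreated cells. Ifih1 (MDA5) and the kinase gene Eif2ak2 (PKR) overlapped between lines and untreated cells, as did Dhx58 (LGP2) and Zbp1, a sensor of Z-form nucleic acids, and none of these 4 passed the test. Ifih1 alone among them had lines on both sides of the pool over a wide range, from -1.84 to 0.70. The 2 probes of Zbp1 went opposite ways. The brightest gave -0.38 as the mean of the lines and -0.94 in untreated cells, and the second -1.44 and -0.60.

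Of the OAS family, which includes enzymes that make the second messenger that switches on RNase L, 3 of 5 members were lower in the lines. Oas1a was at -0.44 in untreated ATMWT and 0.58 in untreated ATMKO cells, and at -4.51, -4.29 and -2.61 as the lowest, median and highest line. All lines lay more than 2 log2 units under both, and the fitted difference was -3.87 ± 0.61 (14.6-fold, limma adjusted p = 0.000187). Oas2 ran from -2.93 to -2.35 in the lines against -0.07 and 0.57 (-2.74 ± 0.42, adjusted p = 0.000152), and Oasl1 from -3.57 to -2.84 against -0.82 and 0.01 (-2.75 ± 0.58, adjusted p = 0.00182). Oasl2 was not well above background on any of the 12 lymphoma arrays, so untreated cells held at least 1.66-fold and GC cells at least 3.46-fold more than the lines; these bounds set each dim array at its lowest reliably bright signal. Its difference from untreated cells missed the threshold and passed without the poor arrays (-0.82 ± 0.29, adjusted p = 0.0353). Oas3 was dim in the lines, above background on 4 of 12 arrays, and did not pass against untreated cells.

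The IFIT proteins bind viral RNA ends. Ifit3 was at -0.64 and -0.15 in untreated cells and from -2.74 to -1.41 in the lines, and Ifit2 at 0.11 and -0.12 against -1.29 to -0.57. Neither overlapped, and both were lower in the lines (Ifit3 -1.56 ± 0.46, adjusted p = 0.0158, and Ifit2 -0.90 ± 0.32, adjusted p = 0.04, limma). Ifit1 was above background on 2 of 12 lymphoma arrays and did not pass against untreated cells, but all lines lay below the 4 stimulated samples (-2.06 ± 0.29, adjusted p = 5.2e-05).

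Isg15, a ubiquitin-like protein joined to other proteins, was at 0.05 and 0.32 in untreated cells and from -2.40 to -0.63 in the lines (-1.45 ± 0.44, limma adjusted p = 0.0187). Its second probe gave a smaller gap, -0.99 as the mean of the lines and -0.52 in untreated cells. The protease gene Usp18, which removes ISG15, ran from -2.78 to -1.29 in the lines against -0.86 and -0.76 and did not pass. Of the PARP group, Parp14 was lower, at -2.40 to -1.19 in the lines against -0.12 and 0.15 (-1.58 ± 0.44, adjusted p = 0.0108). Parp9 and Dtx3l, neighbouring genes whose proteins act as a pair, overlapped with untreated cells, with lines between -1.38 and 0.55 and between -0.98 and 0.85.

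The Mx genes, which encode antiviral GTPases, went opposite ways. Mx1 was at -1.42 in ATMWT and -0.63 in ATMKO untreated cells and at -0.42, 0.88 and 2.03 as the lowest, median and highest line. All 9 lines lay above both untreated samples, though line 1004 only narrowly, and the difference was 1.92 ± 0.63 (3.78-fold, limma adjusted p = 0.0266). Mx2 was at -0.42 and 0.19 in untreated cells and between -2.76 and -1.17 in the lines (-1.63 ± 0.55, adjusted p = 0.0326).

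Among the remaining effectors, Plscr1, a membrane scramblase, was the member raised most clearly. It was at -1.57 and -0.27 in untreated ATMWT and ATMKO cells, -0.67 to 0.12 in stimulated cells, and 0.64, 0.98 and 1.58 as the lowest, median and highest line. It was the only member above the pool in every line, by 1.93 ± 0.33 over untreated cells (3.82-fold, limma adjusted p = 0.000352) and 1.18 ± 0.25 over stimulated ones (adjusted p = 0.00153). Its second probe, at chr9:92166424-92166483 (mm9), gave the same mean in the lines, 1.01, and correlated with the first at 1 over the 16 samples. Bst2 (tetherin), which holds budding virus at the cell surface, lay above both untreated samples in all lines when the arrays of 1039 were averaged, but its second 1039 array reads -1.15, under both. Its call against stimulated cells (0.83 ± 0.31, adjusted p = 0.0404) was lost without the poor arrays (0.76 ± 0.34, adjusted p = 0.083).

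Of the other effectors, Xaf1, Rtp4, Samd9l and Lgals3bp were far lower in the lines. Rtp4, a chaperone of receptors, was at -0.65 and 0.09 in untreated cells and from -5.29 to -4.32 in the lines (-4.26 ± 0.64, limma adjusted p = 0.000128), where it was above background on 4 of 12 arrays. Samd9l, an antiviral translation inhibitor, was at 1.12 and 0.61 against -5.36 to -1.90 (-3.80 ± 0.64, adjusted p = 0.000331), and its second probe followed it (mean of the lines -2.70, of untreated cells 0.83). Lgals3bp, a secreted glycoprotein, was at 0.64 and 1.09 against -3.11 to -1.81 (-3.20 ± 0.43, adjusted p = 4.8e-05); its second probe gave -0.87 in the lines against 0.91. Xaf1, which binds the apoptosis inhibitor XIAP, was at 0.19 and 0.52 against -4.94 to -4.47 (-4.88 ± 0.72, adjusted p = 0.00011) by its probe at chr11:72127175-72127234 (mm9). A second Xaf1 probe of almost equal brightness at chr11:72122169-72122228 gave -0.23 in the lines and -0.26 in untreated cells, so the difference holds for 1 of the 2 probes. Ifi44, above background on 3 of 12 lymphoma arrays, was lower as well (-1.82 ± 0.50, adjusted p = 0.0106), and so was Rsad2 (viperin), whose line 1010 stood at 0.30 while the other lines ran from -1.71 to -0.37 (-1.52 ± 0.54, adjusted p = 0.0394).

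The call of a difference from untreated cells rested on both untreated samples: 9 members were called without the ATMKO sample and 10 without the ATMWT sample, out of 19 with both. Within slide 2 alone, which held ATMWT untreated cells, the member median was -1.18. Within slide 3 alone, with ATMKO untreated cells and the poor array of line 1039, it was -0.90. Slide 4 held ATMKO untreated cells as well. Within it Rtp4 differed by -4.82, Oas1a by -4.96 and Xaf1 by -5.14, and Mx1 by 2.17 and Plscr1 by 1.24. Each slide held 1 untreated sample.

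The lines were also set against GC B cells, with which they shared high levels of the GC markers. Of 34 members 4 were lower in the lines and 2 higher (9.73% of all genes called, 5.34% lower and 4.39% higher), with a median of -0.42 against -0.04 over all genes. All 9 lines lay below the GC sample for 16 members (25.4% of all genes) and above it for 3 (21.3%). Oas1a was at 0.45 in GC cells, or 0.46 without the first array, against a highest line of -2.61, and its difference was -4.25 ± 0.82 (19-fold, limma adjusted p = 0.00512). Rtp4 was at -1.58, or -2.82 without the first array, against a highest line of -4.32 (-2.97 ± 0.86, adjusted p = 0.0425). Oasl2 was at 0.68, or 1.12, and was lower in the lines (-1.99 ± 0.41, adjusted p = 0.00762), as was Irf9, at -0.28 or -0.41 (-1.15 ± 0.33, adjusted p = 0.0393). Mx1 was at -1.97, or -2.69, and Plscr1 at -1.71, or -2.54, and both were higher in every line (Mx1 2.87 ± 0.84, adjusted p = 0.0449, and Plscr1 2.72 ± 0.44, adjusted p = 0.00188).

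These comparisons rest on 1 GC sample, which is assumed to vary as the other groups do. Leaving out line 1001, 1010, 1016 or 1019, or either untreated sample, left 3 members called. Without the 2 poor arrays the same 6 members were called and Oas2 (-1.44 ± 0.46, adjusted p = 0.0453) and Oasl1 (-2.26 ± 0.65, adjusted p = 0.0309) were called lower as well. Without the first GC array alone, the calls of Rtp4 (-1.72 ± 0.86, adjusted p = 0.206) and Irf9 (-1.01 ± 0.33, adjusted p = 0.051) were lost, and with slide as a block that of Rtp4 was (-3.80, adjusted p = 0.0779). Stat2 (-0.77) and Irf7 (-1.01), the other signalling members, did not pass against GC cells; without the poor arrays the difference of Stat2 was -1.21 ± 0.41 (adjusted p = 0.0625).

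GC cells and untreated splenic B cells differed in few members. Lgals3bp (-2.82 ± 0.67, limma adjusted p = 0.0136) and Ddx58 (-1.62 ± 0.37, adjusted p = 0.0117) were lower in GC cells, 2 of 34 members where 11.5% of all genes were called (6.88% lower and 4.61% higher). Without the poor arrays 7 were lower and 1 higher (17% of all genes called): Xaf1 (-5.02), Rsad2 (-3.08), Ifi44 (-2.68), Rtp4 (-2.54) and Plscr1 (-1.62) joined the lower ones, and Oasl2 (1.69 ± 0.45, adjusted p = 0.0168) was higher in GC cells. Leaving out the untreated ATMKO sample left 0 members called and leaving out the ATMKO 3 h sample 5. Ifi44 was not above background on any GC array. The second Xaf1 probe gave 0.17 in GC cells and -0.26 in untreated ones, with all arrays averaged. With slide as a block both calls were lost (Lgals3bp adjusted p = 0.0558, Ddx58 adjusted p = 0.0871).

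The members varied more among the 9 lines than genes did in general. The median SD over lines was 0.39 (log2) for the members and 0.24 for all genes, and 28 of 34 members exceeded the latter. Repeat arrays of lines 1001 and 1010 differed by medians of 0.16 and 0.19 over the members, and by at most 0.78 and 0.60. Taking line 1039 from its second array, 24 members lay below the pool in all 9 lines, 1 (Plscr1) above it in all 9, and 9 on both sides.

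The largest spreads belonged to Cmpk2 (SD 1.21), Samd9l (1.14), Mx1 (0.80), Ifih1 (0.78), Bst2 (0.68) and Parp9 (0.64), and the smallest to Xaf1 (0.15), Oas3 (0.17) and Oas2 (0.18), of which Xaf1 and Oas3 were near background in many lines. Cmpk2, a mitochondrial nucleotide kinase encoded beside Rsad2, was at -1.91 in line 1010 and -2.57 in line 1013, and between -0.19 and 1.16 in the other 7. The same lines 1010 and 1013 held the highest Parp9 (0.52 and 0.55) and Dtx3l (0.76 and 0.85), while line 1004 had the lowest of both (-1.38 and -0.98) as well as the lowest Mx1 (-0.42) and Ifih1 (-1.84). Over the 9 lines Parp9 and Dtx3l correlated at 0.93, and Cmpk2 ran against Dtx3l at -0.92. The median correlation over the 561 pairs of members was 0.21, and 69.5% of pairs lay above 0. These lines share slides and 1 reference, and the values describe them only. Samd9l was lowest in lines 1036 (-5.36) and 1039 (-4.65), with the other 7 between -3.22 and -1.90.

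**Figure D2:**
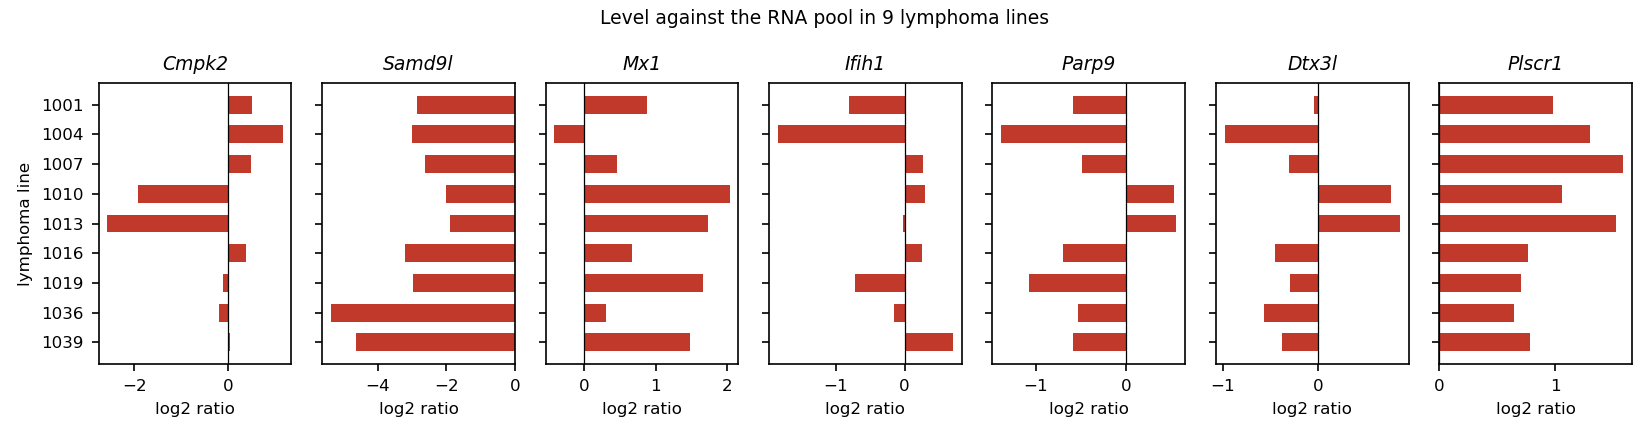
Log2 ratio to the RNA pool (horizontal axis, with a scale of its own in each panel) of 7 members in each of the 9 lymphoma lines (vertical axis), without the first array of line 1039. Cmpk2 is lowest in lines 1010 (-1.91) and 1013 (-2.57), where Parp9 and Dtx3l are highest, and Plscr1 lies between 0.64 and 1.58 in every line.

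In splenic B cells cultured with anti-IgM, many members were lower at 3 h and higher at 6 h than in untreated cells. No cells cultured without the antibody were analysed here, so an effect of the antibody and one of time in culture cannot be told apart. At 3 h, in 1 ATMKO sample, 18 of 34 members were lower than in untreated cells and 1, Ifit1, was higher (19.1% of all genes called, 13.6% lower and 5.46% higher), with a median of -0.80 against -0.10 over all genes. At 6 h, in both genotypes, 26 members were higher and 1 lower (28.7% of all genes called, 12.1% higher and 16.6% lower), with a median of 1.02 against -0.05. At 24 h, again in 1 ATMKO sample, 4 were higher and 1 lower (9.4% of all genes called, 4.95% higher and 4.46% lower), with a median of 0.24. With median centring of the arrays the split at 24 h was 4 higher and 2 lower, and with the deposited log ratios 1 and 1. At 3 h the deposited log ratios, fitted alike, gave 0 calls at a median of -0.75. These 3 contrasts share the untreated samples, come from 1 fit of 6 samples with time and genotype as terms, and have 1 residual degree of freedom, so their errors lean on the spread of all genes; the single samples at 3 h and 24 h are assumed to vary like the others.

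The order over time stood out in the ATMKO samples themselves. The 3 h sample lay below both the untreated and the 6 h sample for 29 members (41.4% of all genes), the 6 h sample was the highest of the 4 for 27 (22.2%), and both held for 22 (11.1%). The 6 h sample lay above the untreated one in both genotypes for 30 of 34 members (32.7% of all genes). Measured within single slides, the change from untreated to 6 h had a member median of 0.92 for ATMWT on slide 2, and of 1.07 and 1.06 for ATMKO on slides 3 and 4, with 30, 31 and 30 members above 0. The fall at 3 h, within slide 3, had a median of -0.59, with 29 members below 0; the untreated array on that slide correlated at 0.638 and 0.639 with the other arrays of its sample, which correlated at 0.934. The 24 h sample had no untreated ATMKO sample on its slide, so its change cannot be told apart from a difference between slides.

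**Figure D3:**
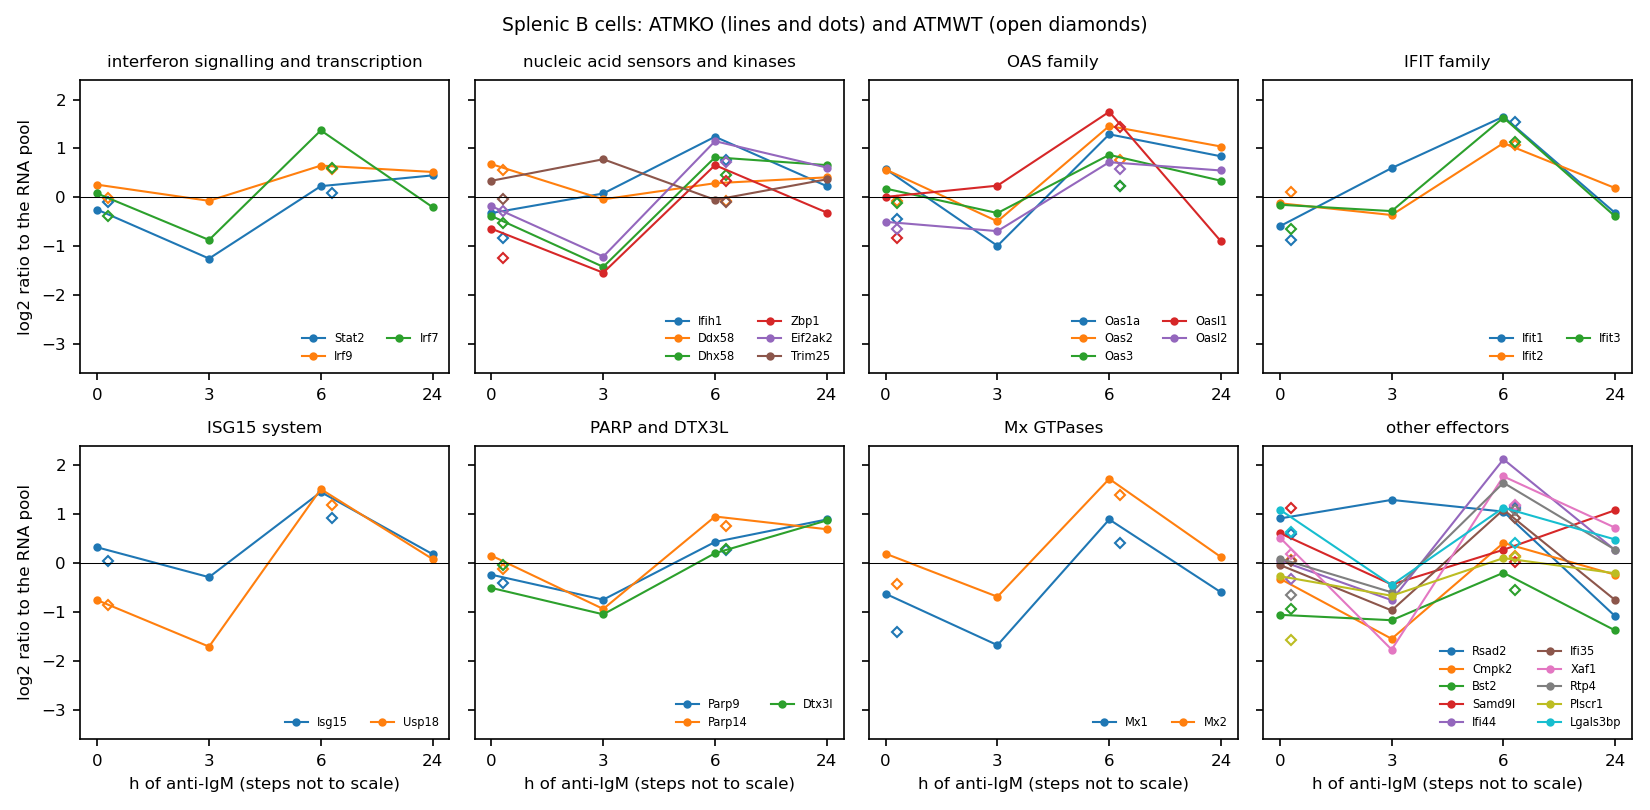
Log2 ratio to the RNA pool (vertical axis) against hours of anti-IgM (horizontal axis, steps not to scale) for the members of each role; dots joined by lines are the ATMKO samples and open diamonds the ATMWT samples. Most members dip at 3 h and peak at 6 h, such as Usp18 (-0.76, -1.71, 1.51 and 0.08 at 0, 3, 6 and 24 h).

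Among the signalling members, Irf7 traced the course plainly. In ATMKO cells it was at 0.08 untreated, -0.87 at 3 h, 1.37 at 6 h and -0.20 at 24 h, and in ATMWT cells at -0.38 untreated and 0.60 at 6 h. It was lower at 3 h (-1.03 ± 0.18, limma adjusted p = 0.0219) and higher at 6 h (1.14 ± 0.13, adjusted p = 0.00569). Stat2 was at -0.25, -1.25, 0.23 and 0.45 in ATMKO cells and at -0.09 and 0.08 in ATMWT cells, lower at 3 h (-1.08 ± 0.18, adjusted p = 0.0198) with no call later. Irf9 was at 0.26, -0.07, 0.65 and 0.52, and in ATMWT cells at -0.01 and 0.59, with a call at 6 h alone (0.49 ± 0.12, adjusted p = 0.0362).

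Ifit1 and Usp18, the ISG15 protease gene, had the largest changes of the members at 6 h. Ifit1 was at -0.59 untreated, 0.60 at 3 h, 1.65 at 6 h and -0.32 at 24 h in ATMKO cells, and at -0.87 and 1.55 in ATMWT cells. It was the only member called higher at 3 h (1.23 ± 0.16, limma adjusted p = 0.0141), and it was higher again at 6 h (2.33 ± 0.12, 5.04-fold, adjusted p = 0.00199). Ifit3 was at -0.15, -0.28, 1.63 and -0.39 in ATMKO and at -0.64 and 1.14 in ATMWT cells (6 h, 1.78 ± 0.11, adjusted p = 0.00238). Usp18 rose from -0.86 to 1.18 in ATMWT cells (6 h, 2.15 ± 0.12, 4.44-fold, adjusted p = 0.00225), and Isg15 from 0.05 to 0.92 there and from 0.32 to 1.45 in ATMKO cells (1.00 ± 0.13, adjusted p = 0.00686). None of these was called at 24 h, where the difference of Usp18 was 0.78 ± 0.16 (adjusted p = 0.0501).

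All 5 OAS genes were called higher at 6 h. Oasl1 in ATMKO cells was at 0.01, 0.24, 1.75 and -0.90 over the 4 times, and in ATMWT cells at -0.82 and 1.44, a 4.01-fold rise at 6 h (2.00 ± 0.16, limma adjusted p = 0.00298). Oas1a fell at 3 h, from 0.58 to -0.99 (-1.59 ± 0.15, adjusted p = 0.0124), before its rise at 6 h (0.69 ± 0.11, adjusted p = 0.0124). Oas2 fell at 3 h too (-1.07 ± 0.15, adjusted p = 0.0153), whereas Oas3, Oasl1 and Oasl2 were not called there. Oasl2 was the OAS gene still called at 24 h (1.06 ± 0.15, adjusted p = 0.0211).

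Both Mx genes were lower at 3 h and higher at 6 h: Mx1 was at -0.63, -1.68, 0.89 and -0.60 in ATMKO and at -1.42 and 0.40 in ATMWT cells (3 h -0.97 ± 0.17, 6 h 1.67 ± 0.13, limma adjusted p = 0.0239 and 0.0029). Of the sensors, Ifih1 (1.58 ± 0.11), Zbp1 (1.44 ± 0.13), Eif2ak2 (1.16 ± 0.14) and Dhx58 (1.08 ± 0.12) were higher at 6 h, and Zbp1, Eif2ak2 and Dhx58 were lower at 3 h. Ddx58 ran against them: it was at 0.55 untreated and -0.08 at 6 h in ATMWT cells, and at 0.68, -0.04, 0.29 and 0.41 in ATMKO cells, and it was the 1 member called lower at 6 h (-0.51 ± 0.12, adjusted p = 0.0353). With each array centred on its median in place of loess, no member (0 of 34) was called lower at 6 h. Trim25 was not called at any time.

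Parp9 and Dtx3l were called at 6 h and again at 24 h. Parp9 was at -0.24, -0.75, 0.43 and 0.89 and Dtx3l at -0.51, -1.05, 0.20 and 0.87 in ATMKO cells over the 4 times, with the 24 h sample the highest in both. Dtx3l (1.28 ± 0.19, adjusted p = 0.0226) and Parp9 (1.12 ± 0.15, adjusted p = 0.0186, limma) were called higher at 24 h, as was Dhx58 (0.98 ± 0.16, adjusted p = 0.0301). The second Parp9 probe, at chr16:35968243-35968302 (mm9), correlated with the first at -0.3 over the pool samples, and with both averaged the 24 h difference of Parp9 was -0.10.

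Among the other effectors, Xaf1 fell most at 3 h, from 0.52 to -1.77 (-2.36 ± 0.16, limma adjusted p = 0.0124), and stood at 1.77 at 6 h. Lgals3bp fell from 1.09 to -0.45 (-1.62 ± 0.17, adjusted p = 0.0124), Cmpk2 from -0.32 to -1.55 (-1.39 ± 0.24, adjusted p = 0.0227) and Samd9l from 0.61 to -0.44 (-1.23 ± 0.27, adjusted p = 0.0363). Ifi44 rose at 6 h, to 2.12 in ATMKO and 1.17 in ATMWT cells (1.79 ± 0.17, adjusted p = 0.0037), and Rtp4 by 1.65 ± 0.12 (adjusted p = 0.0026). Rsad2 differed in shape: in ATMKO cells it was at 0.91 untreated, 1.29 at 3 h, 1.05 at 6 h and -1.09 at 24 h, and it was the 1 member called lower at 24 h (-1.91 ± 0.18, adjusted p = 0.00863). Plscr1 and Samd9l were not called at 6 h.

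With all stimulated times pooled against untreated cells, 0 members were called (0% of all genes; 1669 of 22218 genes had an unadjusted p under 0.05 in limma), at a median of 0.43; the pooled value averages 3 h and 6 h changes of opposite sign. Its 3 largest differences, none past the test, were those of Ifit1 (1.71), Usp18 (1.24) and Ifih1 (1.14). With 6 h and untreated samples alone, 27 members were called.

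Of the 8 members with an ISRE core in the window, 6 were called higher at 6 h, with a median change of 0.67, and of the 17 with an entry and no core 11 were called higher and 1 lower, with a median of 1.03. Of all genes tested, 12.1% were called higher at 6 h and 16.6% lower. At 3 h the medians were -0.40 with a core and -0.78 without. The number of cores did not order the changes at 6 h. Ifit1, with 2 cores, had the largest rise (2.33), but Oas1a, also with 2, rose by 0.69, and Isg15, with 3, by 1.00. Of members with 1 core, Oas3 was called higher, and Stat2 and Rsad2 were not called.

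Other cell types moved over the same course. At 6 h 8 of 8 B cell markers, 11 of 12 neutrophil, 10 of 14 macrophage and monocyte, 8 of 9 NK cell, 8 of 10 T cell and 8 of 10 erythroid markers were lower than in untreated cells, and 4 of 9 dendritic cell markers were lower and 1 higher. At 3 h the counts of lower markers were 4 of 8 for B cells, 0 of 12 for neutrophils, 5 of 14 for macrophages and monocytes, 2 of 9 for NK cells, 1 of 10 for T cells and 4 of 10 for erythroid cells. Of B cell markers 1 was higher at 3 h, and higher markers of the other lists at that time are not given here. Of all genes tested, 13.6% were lower at 3 h, 16.6% at 6 h and 4.46% at 24 h. At 24 h 8 of 9 NK cell markers (list median -1.51), 8 of 10 erythroid (-3.63), 5 of 12 neutrophil, 4 of 14 macrophage and monocyte, 3 of 10 T cell, 2 of 9 dendritic cell and 1 of 8 B cell markers were lower. Higher at 24 h were 2 macrophage and monocyte markers, 1 neutrophil and 1 T cell marker. The part of these cell types in the changes of the members, of which 26 were higher at 6 h, was not tested.

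ATMKO and ATMWT splenic B cells were compared in the samples they have in common. In untreated cells 27 members were higher in ATMKO and 7 lower (median difference 0.29, 0 over all genes), and at 6 h 31 were higher and 3 lower (median 0.34, 0 over all genes). For 25 of 34 members ATMKO was higher both times, a pattern of 28.5% of all genes. Among these 25 Oas1a led, at 0.58 against -0.44 untreated and at 1.29 against 0.23 at 6 h, and Rtp4, Oas2 and Irf7 ran the same way. Plscr1 had the largest difference of the members in untreated cells (1.29), and differed by -0.02 at 6 h. Dtx3l was the 1 member lower in ATMKO both times, with differences of -0.47 and -0.08.

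No member was called between genotypes, 0 of 34 (0% of all genes). The fit with stimulation as 1 term gave a median of -0.20, with 25 members below 0, its ATMKO samples including the low 3 h one, and its largest differences, none past the test, were those of Ifi35 (-0.72), Usp18 (-0.69) and Ifit2 (-0.54); 130 of 22218 genes had an unadjusted p under 0.05. With time as 4 levels, a fit added after the data were seen, the median was 0.26 and 29 members lay above 0, with 0 called, 15 at an unadjusted p under 0.05, and 3 of 22218 genes called in all (limma); Oas1a differed by 1.04 ± 0.11 (adjusted p = 0.347). All ATMWT arrays were on slide 2 and the matching ATMKO arrays on slides 3 and 4, so genotype and slide cannot be told apart.

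Under PCI-32765, members both higher and lower than with vehicle were called in lymphoma lines 178119 and 28545, and the largest change was a fall of Plscr1. Of the 25 members tested, 0 were called at 1 h (0.101% of all genes called, 0.028% higher and 0.0727% lower; 3 members and 2813 of 17876 genes had an unadjusted p under 0.05), 4 at 3 h (3 higher, 1 lower; 7.31% of all genes, 3.12% higher and 4.19% lower), 9 at 6 h (6 higher, 3 lower; 24.3%, of which 11.9% higher and 12.3% lower) and 15 at 24 h (11 higher, 4 lower; 23.2%, of which 11.1% higher and 12.1% lower). The member medians were 0.01, 0.15, 0.18 and 0.24 at these times, against 0.02, 0.02, 0.01 and -0.01 over all genes. As the mean of the 4 times, 13 were higher and 3 lower (32.4% of all genes called, 16.7% higher and 15.7% lower), led by Plscr1 (-1.46), Irf7 (0.59), Mx1 (0.54), Ddx58 (0.49), Dhx58 (0.43) and Samd9l (0.42), or 22 and 1 with median centring. Without the 3 h array of either line 1 member, Plscr1, was called at 3 h, and without the 6 h array of line 178119 or 28545, 5 or 4 were called at 6 h. By the probe that stood for each gene, Oas2, Oas3, Oasl2, Ifit1, Ifit3, Ifi44, Xaf1 and Rtp4 were too dim in these lines to be tested. Trim25 lacked a value on 1 array. The second Xaf1 probe was above background on all 8 drug arrays, with a mean log2 ratio of drug to vehicle of 0.44. It was not part of the main fit.

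The number of calls and their split depended on the centring of the arrays. With each array centred on its median in place of loess, the median of all genes was 0.60, 0.59, 0.24 and 0.30 at 1, 3, 6 and 24 h, and the calls were 19 higher and 0 lower, 19 higher and 1 lower, 8 higher and 1 lower, and 12 higher and 1 lower. Relative to those shifts the member medians (0.64, 0.77, 0.37 and 0.55) stood higher by a fraction of a log2 unit. With the deposited log ratios 0, 1, 5 and 10 members were called, of which 0, 0, 3 and 7 were higher. The shares of all genes called under either setting are not given here, so these counts cannot be read as particular to the members.

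Plscr1, which was above the pool in every lymphoma line, fell under the drug in both lines tested. Its log2 ratio of drug to vehicle was -0.28, -1.90, -2.38 and -1.49 at 1, 3, 6 and 24 h in line 178119 and -0.23, -1.95, -2.22 and -1.27 in line 28545. The 2 lines ran close together at each time, and the fall was 3.80-fold at 3 h (-1.93 ± 0.10, limma adjusted p = 7e-06), 4.92-fold at 6 h (-2.30 ± 0.10, adjusted p = 4e-06) and 2.60-fold at 24 h (-1.38 ± 0.10, adjusted p = 3.6e-05). The call at 3, 6 and 24 h held in each of 16 alternative settings. Both Plscr1 probes gave a mean of -1.46 over the drug arrays. Bst2 followed later and less: it was at -0.73 and -0.26 at 6 h and at -0.85 and -0.73 at 24 h in lines 178119 and 28545 (6 h -0.49 ± 0.12, adjusted p = 0.0148, and 24 h -0.79 ± 0.12, adjusted p = 0.00181). With median centring the 6 h value of Bst2 was 0.03 and its 24 h value -0.27 (limma adjusted p = 0.942 and 0.39), so neither call held.

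Of the signalling members, Irf7 rose by 6 h. It was at -0.28, 0.40, 0.64 and 0.85 at 1, 3, 6 and 24 h in line 178119 and at 0.18, 0.70, 1.07 and 1.18 in line 28545, above 0 in both lines from 3 h on (6 h 0.86 ± 0.15, limma adjusted p = 0.00317, and 24 h 1.02 ± 0.15, adjusted p = 0.00167). Irf9 was at 0.36 and 0.57 at 24 h (0.46 ± 0.10, adjusted p = 0.00997). Stat2 was at 0.59 and 0.48 at 3 h (0.53 ± 0.13, adjusted p = 0.0372) and at 0.33 and 0.52 at 24 h (0.42 ± 0.13, adjusted p = 0.0422). The 24 h calls of Irf9 and Stat2 were lost without the 24 h array of line 28545, that with the high share of bright spots.

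Samd9l, one of the members farthest below the pool in the 9 lines, rose late. It was at 0.11, 0.03, 0.02 and 1.74 in line 178119 and at -0.09, -0.12, 0.40 and 1.24 in line 28545, so that the 24 h values stood well apart (1.49 ± 0.14, 2.82-fold, limma adjusted p = 0.000146). Ddx58 rose at 6 h (0.61 and 1.07) and 24 h (1.03 and 0.66), by 0.84 ± 0.13 at each (adjusted p = 0.00173 and 0.00206). Dhx58 (0.64 and 0.95, fitted 0.79 ± 0.12, limma adjusted p = 0.00197) and Oas1a (0.82 and 0.60, fitted 0.71 ± 0.12, adjusted p = 0.00271) rose at 24 h. Oas1a was dim on the 8 drug arrays, above background on 5 in the drug channel and on 3 in the vehicle channel. Its second probe was above background on 2, with a mean of 0.04. Mx1 was above its vehicle level from 3 h on, by 0.72 ± 0.13 at 3 h, 0.74 ± 0.13 at 6 h and 0.67 ± 0.13 at 24 h (adjusted p = 0.012, 0.00381 and 0.00647), and Mx2 by 0.48 ± 0.12 at 3 h and 0.52 ± 0.12 at 6 h (adjusted p = 0.0399 and 0.0119). Rsad2 (-0.45 ± 0.10, adjusted p = 0.0121) and Ifit2 (-0.38 ± 0.12, adjusted p = 0.0451) were lower at 24 h. With the line as a replicate block the 24 h calls of Ifit2 (adjusted p = 0.0542), Stat2 (adjusted p = 0.0518) and Oasl1 (adjusted p = 0.0553) were lost. In the fit without the block Isg15 and Usp18 were not called at any time.

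Against the 1 h change, the 24 h change was higher for 4 members and lower for 2 (7.19% of all genes called, 3.48% higher and 3.71% lower); the split was 1 and 2 with median centring and 0 and 1 with the deposited log ratios. Leaving out the 1 h array of either line or the 24 h array of line 178119 left 3 called. The 6 called with all arrays were Samd9l (1.48 ± 0.20, limma adjusted p = 0.00335), Irf7 (1.07 ± 0.21, adjusted p = 0.0185), Ddx58 (0.86 ± 0.18, adjusted p = 0.024) and Oas1a (0.66 ± 0.16, adjusted p = 0.0418), and Plscr1 (-1.12 ± 0.14, adjusted p = 0.00236) and Bst2 (-0.78 ± 0.17, adjusted p = 0.0243). No member was called as different between the lines, 0 of 25 (0% of all genes; 640 of 17876 genes and 1 member had an unadjusted p under 0.05), with 4 pairs of arrays; the largest difference was that of Irf7 (0.38). At 24 h 13 of the 25 members lay above 0 in both lines and 7 below 0 in both. Without the 24 h array of line 28545, 10 members were called at 24 h (6 higher, 4 lower), and without that of line 178119, 8.

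**Figure D4:**
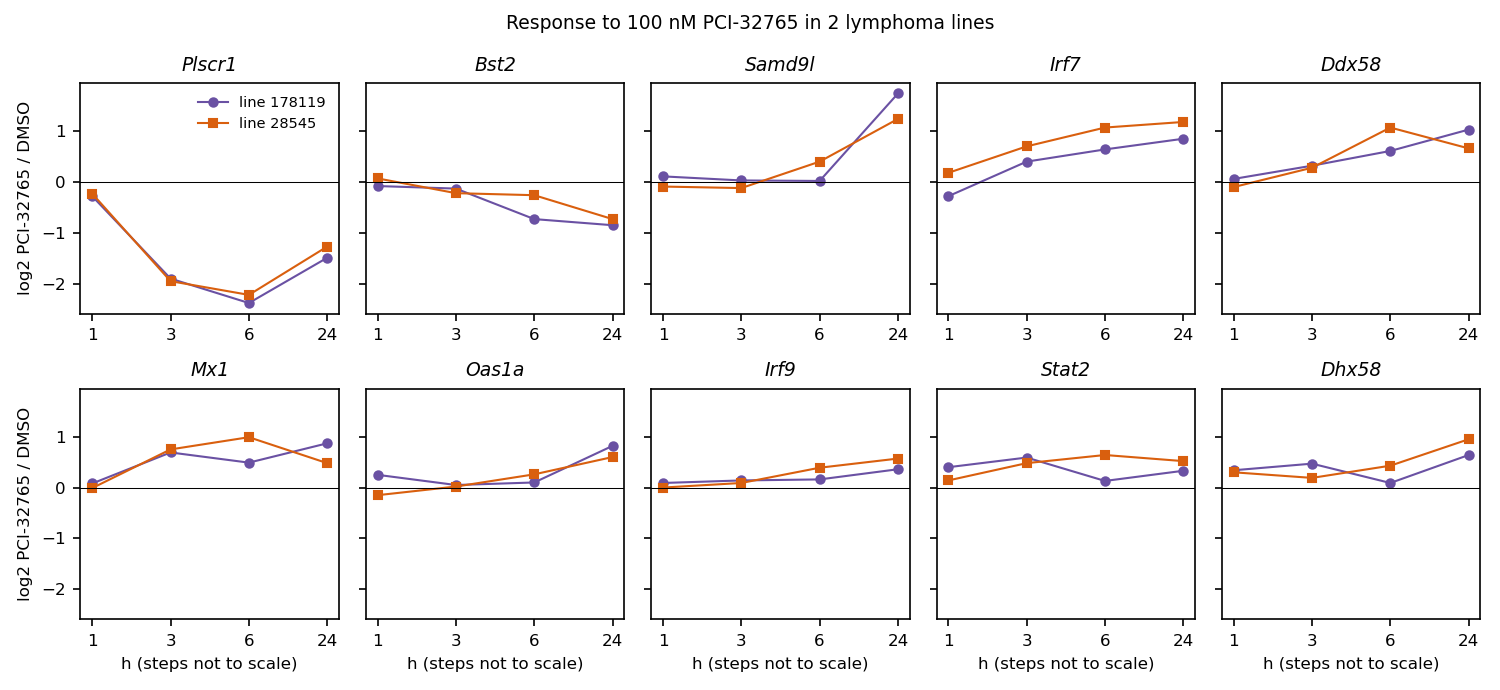
Log2 ratio of PCI-32765 to DMSO (vertical axis) against hours of treatment (horizontal axis, steps not to scale) for 10 members in lymphoma lines 178119 (circles) and 28545 (squares), 1 array per point. Plscr1 falls to -2.38 and -2.22 at 6 h in both lines, and Samd9l reaches 1.74 and 1.24 at 24 h.

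B cell markers also moved at 24 h of the drug, 5 of 6 tested being higher (11.1% of all genes) with a list median of 0.75, and their part in the rise of the members was not tested. Of the neutrophil, macrophage, T cell and NK cell markers, 4, 7, 5 and 3 were bright enough to be tested on these arrays.

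The rest of the interferon pathway was read from 3 further lists. Of 29 tested ligands, receptors and signalling genes (35 listed), 16 were lower and 2 higher in the lines than in untreated cells (35.8% of all genes called), among them Tlr7, an RNA sensor of the endosome (-3.20 ± 0.47, limma adjusted p = 0.000111), Irf8, a factor of B and myeloid cells (-3.00 ± 0.33, adjusted p = 8.39e-06), and Ifng (-2.90 ± 0.49, adjusted p = 0.000358). Against GC cells 3 of this list were higher and 2 lower (9.73% of all genes called), with Irf8 (-2.91 ± 0.44, adjusted p = 0.00116), Ifnar2, a subunit of the type I receptor (2.44 ± 0.59, adjusted p = 0.0169), and Irf3 (-1.74 ± 0.33, adjusted p = 0.00439) the largest. Tyk2 (0.11) did not pass against untreated cells, and Jak1 was lower than in untreated cells (-1.78 ± 0.23, adjusted p = 3.08e-05); both were named for their place in the pathway after their values were seen. In cells cultured with anti-IgM 7 of 29 were lower and 3 higher at 3 h (19.1% of all genes called), and 5 were lower and 4 higher at 6 h (28.7%). Samhd1, a nucleotide hydrolase, fell by 2.08 at 3 h (± 0.18, adjusted p = 0.0124), and Ticam1, the TLR3 adaptor, rose at 6 h (1.14 ± 0.17, adjusted p = 0.01) and 24 h (1.60 ± 0.23, adjusted p = 0.0218). Under the drug 4 of 28 were lower and 0 higher at 3 h (7.31% of all genes called), led by the feedback inhibitor Socs3 (-1.01 ± 0.11, adjusted p = 0.000738), and Irf8 was higher at 24 h (1.25 ± 0.13, adjusted p = 0.000263).

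Of 47 other interferon-induced genes, 43 were tested between lines and untreated cells, 22 lower and 2 higher (35.8% of all genes called). At 3 h of anti-IgM 24 of 44 were lower and 1 higher (19.1% of all genes), led by Ifi203 (-2.71 ± 0.21, limma adjusted p = 0.0124), and at 6 h 11 were higher and 7 lower (28.7% of all genes), with Ifi27l2a (1.66 ± 0.11, adjusted p = 0.0026) and Trim30a (1.29 ± 0.12, adjusted p = 0.00387) among the higher. Under the drug 5 of 33 were higher and 1 lower at 3 h (7.31% of all genes called), the lower one being Slfn2, a regulator of lymphocyte quiescence, which fell by 2.06 (± 0.19, adjusted p = 0.000301). At 24 h 11 were higher and 3 lower (23.2% of all genes), led by Ifi27 (1.32 ± 0.10, adjusted p = 6.43e-05). The guanylate-binding proteins, immunity-related GTPases and antigen processing genes, many of them targets of interferon gamma, had 9 of 27 lower and 3 higher in the lines (35.8% of all genes called), with Gvin1 (-4.98 ± 0.49, adjusted p = 3.57e-06) and Tgtp2 (-3.47 ± 0.57, adjusted p = 0.000258) the deepest. Against GC cells 3 were higher in the lines (9.73% of all genes called, either way), Gbp2 (1.85 ± 0.49, adjusted p = 0.0282), B2m (1.52 ± 0.40, adjusted p = 0.0271) and Gbp6 (1.40 ± 0.42, adjusted p = 0.0473). At 3 h 11 of 28 were lower and 0 higher (19.1% of all genes called), and at 6 h 9 were higher and 2 lower (28.7%), led by Ifi47 (1.34 ± 0.17, adjusted p = 0.00702).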

How the data were processed

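RNA of mouse B cells was hybridised to 32 2-colour Agilent arrays (62976 spots, 55681 probes). The deposited scanner files hold spot intensities of both channels, per the file headers from Feature Extraction 10.1.1.1, while the submitters' processing notes name Feature Extraction 9.1 and limma. The deposited value table holds log10 ratios of Cy5 over Cy3 that equal the scanner's own ratio within 5e-04, with column medians of -0.083 to 0.058. Its scaling beyond that is not given in the sources used here.

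Mean intensities were background-corrected in limma 3.58.1 (R 4.3.3; normexp, offset 50) and normalised by loess within each array, with control and outlier spots at weight 0 (1.14% of probe and array pairs were outliers). Replicate spots were averaged. A probe stayed in where a share of at least 0.5 of a fit's arrays had it well above background, in whichever channel, and the brightest probe stood for a gene. Repeat arrays of a sample were averaged, on the labels' repeat numbers. Probe accessions matched RefSeq for 27235 probes, and 2838 probes took an updated symbol. Moderated tests (eBayes) used Benjamini-Hochberg adjustment over all genes at 0.05. Fold changes are on the log2 scale after loess. Depth has no meaning for arrays, and the number of samples limits the precision.

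The pool fit held 16 samples, with groups for lines, GC, untreated and stimulated cells (12 residual degrees of freedom). The splenic fits held 6 samples, and the drug fit 8 arrays with 1 term per time (4 residual degrees of freedom). Genes were named by rule: Stat2, Irf9 and Irf7 always, the 6 largest called changes of a comparison (the 3 largest where none passed), the 6 largest and 3 smallest spreads among lines, and the 3 largest called changes of each other list. Other members were named by role after their values were seen. The members, lists and tests were chosen with earlier results of these data known. A field of the labels gives 3 hours for the samples that their titles and sources give as 6 h; the titles were followed. Alternatives covered the background correction, centring, deposited ratios, probe choice, dim-probe filter, slides, repeat arrays and each left-out sample. Promoters came from RefSeq tables of GRCm38.p6, while probe positions are mm9 as deposited. Results on some items are not reported here.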

Additional observations from a re-analysis of the deposited data

Results flagged for a closer look

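In 6 of the 34 members, 1 lymphoma line lay far from the other 8 by Dixon's criterion, which chance alone meets in about 1 in 20 groups. In 4 of them the line was 1039, averaged over its arrays. It was the highest line for Oas2, at -1.33 (log2 ratio to the pool) with the next line at -2.35, for Oasl1, at -1.71 with the next at -2.84, for Xaf1, at -2.51 with the next at -4.47, and for Rtp4, at -2.30 with the next at -4.32. On its second array alone, line 1039 read -2.86 for Oas2, -3.46 for Oasl1, -4.75 for Xaf1 and -4.76 for Rtp4, within or near the range of the other lines.

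Line 1036, with 1 array, was the lowest for Dhx58, at -1.58 with the next line at -0.99, and for Samd9l, at -5.36 with the next at -3.22. For Samd9l the second array of line 1039 read -4.65, so line 1036 stood less far apart with that array alone.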

How the results depend on the processing

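The number of members called was recomputed under each alternative. The shares of all genes called under these alternatives are not given in this section, so its counts cannot be read as particular to the members. The only GC array in the first-repeat and slide 2 fits was the poor first one, and slide 4 held the other GC arrays. In lymphoma against GC, Xaf1 differed by -4.76 within slide 2 and by 0.17 within slide 4, and Oas1a by -4.39 and -4.77. Lymphoma against GC, with 6 called, gave 2 with the first repeat array only, 3 with median centring and 11 within slide 2, and 3 to 9 when 1 sample was left out. Lymphoma against untreated, with 19, gave 11 within slide 2, 0 within slide 3 and 9 to 23 with a sample left out, and lymphoma against anti-IgM, with 28, gave 3 within slide 3 and 22 to 28. GC against untreated, with 2, gave 0 with the first repeat only, within slide 2 or with slide as a block, 8 within slide 4, 8 without both poor arrays and 7 without the first GC array, and 0 to 5 with a sample left out. Anti-IgM against untreated gave 27 with 6 h and untreated samples only, and 0 to 0 with a sample left out. At 3 h, with 19, the deposited ratios and the first repeat only gave 0, and 19 to 19 (1 fit) were called with a sample left out. At 6 h the range was 26 to 27. At 24 h, with 5, the deposited ratios gave 2, the first repeat only 1, and 5 to 5 (1 fit) were called with a sample left out. Genotype stayed at 0 to 0.

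For PCI-32765, 1 h gave 19 with median centring, and 3 h, with 4, gave 1 with the deposited ratios and 20 with median centring. At 6 h, with 9, the deposited ratios gave 5, and for 24 h minus 1 h, with 6, they gave 1 and median centring 3. With an array left out, the ranges were 13 to 17 for the mean, 0 to 0 at 1 h, 1 to 4 at 3 h, 4 to 10 at 6 h, 8 to 15 at 24 h, 3 to 7 for 24 h minus 1 h and 0 to 0 between lines. A replicate block for the line gave 15 for the mean and 0, 5, 8 and 12 at 1, 3, 6 and 24 h, with 6 for 24 h minus 1 h.

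Of 1383 alternative values of named members, 1229 kept their direction and side of the threshold, 152 kept the direction without the call, and 2 reversed. Parp9 at 24 h of anti-IgM was -0.10 (limma adjusted p = 0.654) with all probes averaged, and Bst2 at 6 h of PCI-32765 was 0.03 (adjusted p = 0.942) with median centring; the cause was not tested beyond the probe and shift values given above. Splenic fits by time that left no residual degrees of freedom, those of ATMKO alone, and a slide block for single times were not run. Oasl2, Ifit1, Ifi44, Oas3 and Rtp4 were near background in the lines, which limits the size of their differences.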
